A study of Homo sapiens with 2 samples.

Results

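Metallothioneins and the genes around them in zinc handling were followed in U87 cells, an established human glioblastoma line, after 72 h with the curcumin analog CCA-1.1 or with DMSO, its solvent. The set was named by gene function: 6 metallothionein genes (MT2A, MT1X, MT1E, MT1F, MT1M and MT1G), the transcription factor MTF1 and the zinc transporters SLC30A1 and SLC39A10, 9 of 41582 genes in the table. Its members were chosen with earlier results of these data known. The cells were wild type, grown in RPMI with fetal bovine serum, and the concentration used for sequencing is not given in the sources used here. Each treatment gave 1 library, so replicate error is unknown for every difference below and no p-value is given. Values are TPM, transcript abundances corrected for length and scaled to a common total per library, so they keep no read depth. A gene's level is the sum of TPM over its transcripts. A difference is log2(TPM + 1) with CCA-1.1 minus log2(TPM + 1) with DMSO, and at low TPM this scale makes changes look smaller than they are. Counting error cannot be given, because the depth is unknown.

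Metallothioneins are small cytosolic proteins in which cysteines bind zinc, copper and cadmium. They buffer free zinc and react with oxidants, and in brain tissue the MT1 and MT2A forms are made mainly by astrocytes. MTF1 is a zinc finger factor that binds metal response elements and drives the MT genes and SLC30A1 when cellular zinc rises. SLC30A1 exports zinc across the plasma membrane and SLC39A10 imports it, and SLC39A10 is known to be repressed through MTF1.

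The coding sequences of the 3 metallothionein members with the highest levels are shown to make plain how alike these genes are. They come from GENCODE v44 transcripts, and the capitals mark the codons for cysteine (tgc or tgt).
MT2A: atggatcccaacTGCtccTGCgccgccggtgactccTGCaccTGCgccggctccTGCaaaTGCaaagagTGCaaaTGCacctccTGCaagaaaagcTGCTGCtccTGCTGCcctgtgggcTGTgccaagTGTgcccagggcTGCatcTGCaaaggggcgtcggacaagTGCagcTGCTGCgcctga
MT1X: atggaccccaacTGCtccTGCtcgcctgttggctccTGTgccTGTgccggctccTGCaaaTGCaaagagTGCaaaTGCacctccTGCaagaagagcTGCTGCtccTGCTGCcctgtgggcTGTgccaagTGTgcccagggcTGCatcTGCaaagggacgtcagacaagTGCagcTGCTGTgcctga
MT1E: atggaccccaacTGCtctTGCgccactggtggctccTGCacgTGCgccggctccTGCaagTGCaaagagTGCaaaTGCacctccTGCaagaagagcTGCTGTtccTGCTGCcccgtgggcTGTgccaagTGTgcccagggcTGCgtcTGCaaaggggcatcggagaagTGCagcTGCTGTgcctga
In each of the 6 metallothionein members, 20 of 61 codons before the stop encode cysteine. Base for base, the MT2A coding sequence was identical to that of MT1X at 172 of 186 positions (92.5%), and over all pairs of the 6 genes the identity ran from 88.7% to 95.2%. The likeness extends to the whole transcripts. Of 371 stretches of 31 bases in the MT2A transcript, 55 (14.8%) also occurred in another gene of the deposited table, 50 of them in MT1X. The share was 21.7% for MT1X, 15.3% for MT1E, 13.9% for MT1F, 31.4% for MT1G and 40.5% for MT1M. Reads that lie wholly within such stretches can only be divided among the genes by estimation, which makes the level of a single metallothionein uncertain. The share of such reads was not measured, and the shares of stretches do not give it. A division of reads within the family touches the family sum only through differences in gene length.

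The promoters of MT2A, MT1X and SLC30A1 are shown because they hold matches to the core of the metal response element, the motif that MTF1 binds. The core was spelled TGCACNC or TGCGCNC and searched on both strands in the 250 bases before the start of transcription. The sequences are from RefSeq, build GRCh38.p14, written 5′ to 3′ on the strand of the gene, and the capitals mark the matches. The windows are chr16:56608334-56608583 on the plus strand for MT2A, chr16:56682220-56682469 on the plus strand for MT1X, and chr1:211579162-211579411 on the minus strand for SLC30A1.
MT2A: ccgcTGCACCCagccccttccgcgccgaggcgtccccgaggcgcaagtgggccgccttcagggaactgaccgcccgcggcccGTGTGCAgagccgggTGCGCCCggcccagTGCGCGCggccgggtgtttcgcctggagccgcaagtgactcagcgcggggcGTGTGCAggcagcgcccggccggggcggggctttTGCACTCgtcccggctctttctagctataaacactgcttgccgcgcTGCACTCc
MT1X: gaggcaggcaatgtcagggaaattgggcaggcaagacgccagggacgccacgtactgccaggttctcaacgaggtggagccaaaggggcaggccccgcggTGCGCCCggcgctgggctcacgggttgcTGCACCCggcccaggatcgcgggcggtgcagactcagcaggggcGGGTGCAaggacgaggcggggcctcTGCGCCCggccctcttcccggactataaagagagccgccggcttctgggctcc
SLC30A1: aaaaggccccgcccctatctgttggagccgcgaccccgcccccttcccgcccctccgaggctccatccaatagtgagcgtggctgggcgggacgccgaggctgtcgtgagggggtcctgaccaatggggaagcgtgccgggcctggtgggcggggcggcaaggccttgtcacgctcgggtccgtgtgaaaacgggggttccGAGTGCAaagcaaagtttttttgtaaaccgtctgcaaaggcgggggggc
The MT2A window held 7 matches, and 0.031% of the 35116 promoter windows of the RefSeq table held as many or more. MT1X held 4 matches, a number reached by 0.37% of all windows. SLC30A1 held 1 match, and 24.8% of windows held at least 1. Outside the members, MT1H held 8 matches, more than MT2A, and MT1B and MT4 held 3 each, and these 3 genes were listed at 0 TPM in both libraries. MTF1, with 1 window, and SLC39A10, with 2 windows, held 0 matches. A match describes these letters alone and does not show binding. Windows of MT1E, MT1F, MT1M and MT1G were not analysed here.

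MT2A, the main metallothionein of most human cells, was the most abundant member. Its position is 56608584 to 56609497 on chromosome 16 (GRCh38.p14, as for all positions given here). MT2A stood at 1034 TPM with DMSO and 806 TPM with CCA-1.1, and it ranked 116 and 148 among all genes. MT2A was thus lower with CCA-1.1, at 78.0% of its DMSO level, a difference of -0.36.

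MT1X, the next in level, showed the largest difference among the metallothioneins above 10 TPM. MT1X (chromosome 16, 56682470 to 56684196) was at 357 TPM with DMSO and 253 TPM with CCA-1.1. The CCA-1.1 level was 70.8% of the DMSO level, and the difference was -0.50. MT1E (56625781 to 56627112) was at 83.7 TPM with DMSO and 69.5 TPM with CCA-1.1, a difference of -0.26. MT1F (56657959 to 56659303) was at 73.6 TPM with DMSO and 67.2 TPM with CCA-1.1, a difference of -0.13, the smallest of these 4. The order of levels, MT2A over MT1X over MT1E over MT1F, was the same in both libraries.

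MT1M and MT1G were close to the floor of the table. MT1M (56632659 to 56633981) was at 1.31 TPM with DMSO and 0.78 TPM with CCA-1.1, a difference of -0.38. MT1G (56666730 to 56668065) was listed at 0 with DMSO and at 0.25 TPM with CCA-1.1, and no fold is given for it. Among the members, metallothionein RNA was therefore carried by MT2A, MT1X, MT1E and MT1F, and all 4 were lower with CCA-1.1. In bulk RNA, fewer cells with a transcript and less of it per cell cannot be told apart.

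**Figure D1:**
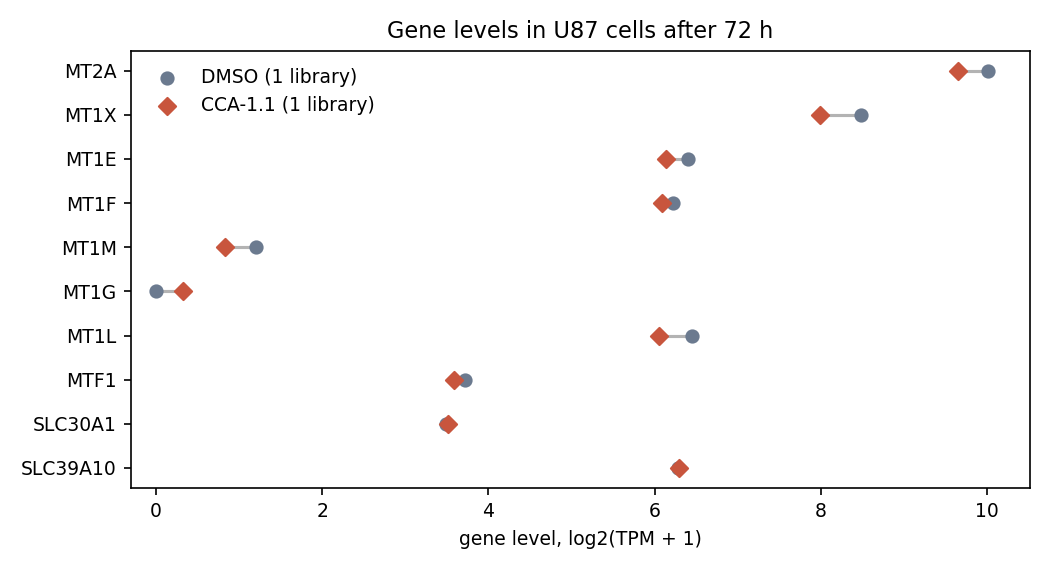
Gene levels as log2(TPM + 1) on the horizontal axis for the 9 members and the pseudogene MT1L, with a circle for the DMSO library and a diamond for the CCA-1.1 library. MT2A, MT1X, MT1E, MT1F, MT1M and MT1L lie further left with CCA-1.1, while SLC30A1 and SLC39A10 nearly coincide.

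The zinc sensor and the transporters differed less. MTF1 (chromosome 1, 37809574 to 37859592) was at 12.2 TPM with DMSO and 11.0 TPM with CCA-1.1, a difference of -0.14. SLC30A1, the exporter and a known MTF1 target (chromosome 1, 211571568 to 211579161), was at 10.2 TPM with DMSO and 10.4 TPM with CCA-1.1, a difference of 0.03. SLC39A10, the importer (chromosome 2, 195613029 to 195737700), was at 76.8 TPM with DMSO and 77.3 TPM with CCA-1.1, a difference of 0.01. Both transporters were therefore at nearly equal levels in the 2 libraries.

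Of the 9 members, 8 averaged 1 TPM or more, MT1G being the exception. None of the 8 differed by more than 2-fold in either direction. Among all 15485 genes with such a mean, 1.89% were higher and 1.67% were lower by more than 2-fold. A smaller step was also counted, lower by more than 20% or higher by more than 25%, which are equal on the log scale after the pseudocount of 1 TPM. By this step 3 of the 8 members were lower (MT2A, MT1X and MT1M), against a background of 6.88% of genes, and 0 were higher, against 11.5%. With a minimum mean of 10 TPM, which MT1M does not reach, 2 of 7 members were lower by more than 20% and 0 were higher by more than 25%, against 4.56% and 6.17% of 8589 genes. MT2A and MT1X also exceed 100 TPM, where 4.82% of 1556 genes were lower and 6.43% were higher by that step. Within that group, 3.86% of genes had a difference below that of MT2A and 1.54% below that of MT1X. Among genes averaging 10 TPM or more, 6.99% lay below MT1E, 19.7% below MT1F, 18.5% below MTF1, 50.4% below SLC39A10 and 55.2% below SLC30A1. So MT2A and MT1X stood in the lower tail of differences, and the transporters stood in the middle. The median difference was -0.20 for the 8 members and 0.03 for all genes averaging 1 TPM or more.

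**Figure D2:**
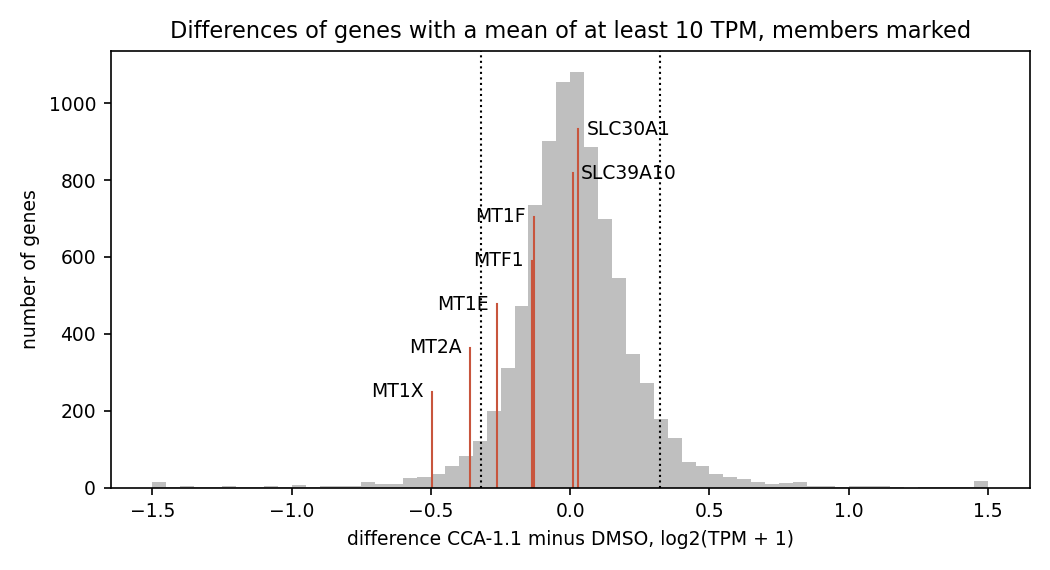
Number of genes by difference (CCA-1.1 minus DMSO, log2(TPM + 1)) for the 8589 genes averaging 10 TPM or more, with values beyond 1.5 drawn in the end bars. Red lines mark the 7 members above this mean and have heights set for legibility, and dotted lines mark 20% lower and 25% higher. MT2A and MT1X lie left of the lower dotted line, and SLC30A1 and SLC39A10 lie near 0.

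As a family, the 14 MT1 and MT2A genes of the table summed to 1637 TPM with DMSO and 1263 TPM with CCA-1.1. The sum with CCA-1.1 was 77.2% of that with DMSO, a difference of -0.37. It made up 0.164% of all TPM with DMSO and 0.126% with CCA-1.1. The make-up of the sum was close in both libraries. MT2A held 63.1% of it with DMSO and 63.8% with CCA-1.1, MT1X held 21.8% and 20.0%, the pseudogene MT1L held 5.29% and 5.19%, MT1E held 5.11% and 5.50%, and MT1F held 4.50% and 5.32%. MT2A accounted for 60.8%, MT1X for 27.9% and MT1L for 5.63% of the difference between the sums. Without MT2A, the MT1 genes summed to 604 TPM with DMSO and 457 TPM with CCA-1.1, a difference of -0.40.

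**Figure D3:**
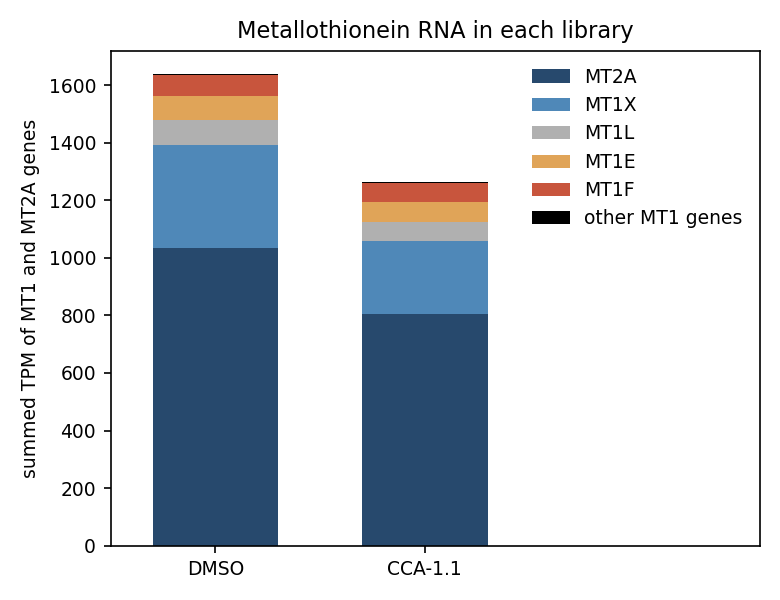
Summed TPM of the MT1 and MT2A genes in each library, stacked by gene on an axis that starts at 0. The stack is 1637 TPM high with DMSO and 1263 TPM high with CCA-1.1, and MT2A and MT1X make up most of both.

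Outside the members, the pseudogene MT1L was the 1 metallothionein of 10 averaging 1 TPM or more. MT1L was at 86.6 TPM with DMSO and 65.6 TPM with CCA-1.1, a difference of -0.40, and was thus lower by more than 20%. Of 156 stretches of 31 bases in its GENCODE transcript, 27 occurred in another metallothionein, so its level shares the same uncertainty. MT1A, MT1B, MT1H, MT1HL1, MT1IP and MT4 were listed at 0 in both libraries. MT3, the brain form, was at 0.21 TPM with DMSO and listed at 0 with CCA-1.1. MT1DP and MT1JP stayed at or below 1.35 TPM in both libraries.

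By single transcripts, MT2A, MT1X, MT1M and SLC30A1 have 1 entry each in the table. In MT1F, NM_005949.4 was at 72.1 TPM with DMSO and 62.3 TPM with CCA-1.1, while NM_001301272.2 was at 1.47 TPM and 4.81 TPM. The minor MT1F transcript thus went the other way, and its share of the gene was 1.997% with DMSO and 7.16% with CCA-1.1. Both MT1E transcripts were lower with CCA-1.1, NM_175617.4 at 81.4 TPM and 67.9 TPM, and NM_001363555.2 at 2.24 TPM and 1.67 TPM. Of 10 SLC39A10 transcripts, NM_020342.3 held 94.8% of the gene with DMSO and 93.9% with CCA-1.1, at 72.8 TPM and 72.5 TPM. Of 5 MTF1 transcripts, NM_005955.3 held 95.6% and 96.5%, at 11.6 TPM and 10.6 TPM.

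The metallothionein cluster spans chromosome 16 from 56608584 to 56684196, and its neighbours within 500 kb on either side were looked at after the member values had been seen. Of 11 such genes averaging 1 TPM or more, 10 are protein-coding, and 0 of these passed the step in either direction. Among all genes with such a mean, 6.88% were lower and 11.5% were higher by the step. Their median difference was -0.0097, with a range from -0.20 for OGFOD1 to 0.26 for CPNE2. The remaining neighbour, the long non-coding RNA gene LOC124903695 (56606909 to 56608433), ends inside the MT2A promoter window shown earlier. LOC124903695 stood at 6.33 TPM with DMSO and 4.32 TPM with CCA-1.1, a difference of -0.46. It was thus lower with CCA-1.1, as the metallothioneins beside it were, while the protein-coding neighbours lay on both sides of 0. LOC124903695 is below 10 TPM, where differences spread more widely. The 5th percentile of all genes was -0.40 at a minimum mean of 1 TPM and -0.31 at 10 TPM. The strand of LOC124903695 is not given here, and shared regulation with the metallothioneins was not tested.

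**Figure D4:**
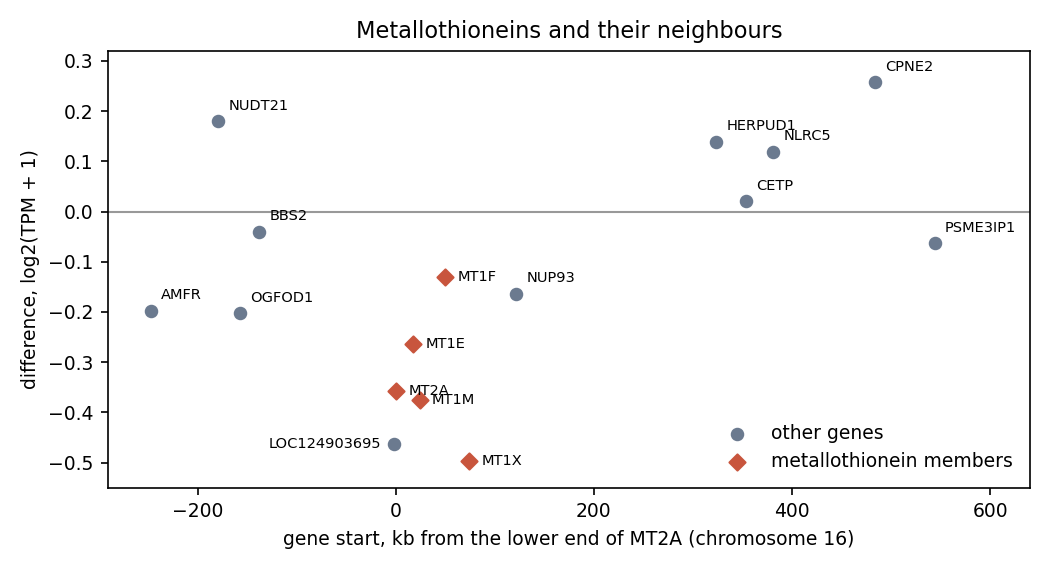
Difference (CCA-1.1 minus DMSO, log2(TPM + 1)) against the position of each gene's lower end, in kb from that of MT2A on chromosome 16, for the metallothionein members averaging 1 TPM or more (diamonds) and their neighbours (circles). MT1X, LOC124903695, MT1M and MT2A have the lowest values, from -0.50 to -0.36.

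None of the other zinc transporters averaging 1 TPM or more was past the 20% or 25% step. Among all genes with such a mean, 6.88% were lower and 11.5% were higher by that step, and the same shares stand beside the lists below. In lists of 4 to 10 genes, 0 past the step is not far from these shares. Of 9 SLC30 exporters outside the members, 4 averaged 1 TPM or more, and 0 of these passed the step in either direction. Their median difference was 0.07, in a range from -0.20 to 0.09, and SLC30A5, which loads zinc into the secretory pathway, was the highest of them at 48.2 TPM with DMSO and 50.2 TPM with CCA-1.1. Of 13 SLC39 importers outside the members, 10 had such a mean, with 0 past the step. Their median was -0.08 and their range -0.24 to 0.13, with 9 of the 10 below 0, against 43.7% of all genes with such a mean. That share is not matched for level, since all 10 averaged more than 10 TPM and some more than 100 TPM. The median over all genes was 0.03 at a minimum of 1 TPM, 0.01 at 10 TPM and -0.03 at 100 TPM. SLC39A1, a plasma membrane importer, was the highest at 331 TPM with DMSO and 312 TPM with CCA-1.1.

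Genes for copper, which metallothioneins also bind, gave a similar picture. Of 9 such genes, 8 averaged 1 TPM or more and 0 passed the step, with a median of -0.08 and a range from -0.22 to 0.20. Here too most were below 0, 7 of the 8, against 43.7% of all genes with such a mean, a share again not matched for level. SOD1, the copper and zinc superoxide dismutase, was the highest at 590 TPM with DMSO and 548 TPM with CCA-1.1.

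MT genes also respond to oxidants and to glucocorticoids, so genes known for those responses were set beside them. Of 9 other genes induced by metals or oxidants, 8 averaged 1 TPM or more, with a median difference of -0.0024. SLC7A11, the cystine transporter subunit, was the 1 gene past the step, and it was higher with CCA-1.1, at 18.0 TPM with DMSO and 23.1 TPM with CCA-1.1, a difference of 0.34. So 1 of the 8 was higher by the step, near the 11.5% of all genes with such a mean. HSPA1B, an inducible heat shock chaperone, was the highest of the list at 884 TPM with DMSO and 761 TPM with CCA-1.1, and its near-identical copy HSPA1A makes its level uncertain. HMOX1, heme oxygenase 1, which heavy metals induce strongly, was at 186.3 TPM with DMSO and 186.0 TPM with CCA-1.1. HMOX1 was picked for mention after its values were seen. Of 6 glucocorticoid induced genes, 5 averaged 1 TPM or more and 0 passed the step, with a median of 0.02. The highest of them, DUSP1, a MAP kinase phosphatase, was at 120.5 TPM with DMSO and 108.4 TPM with CCA-1.1.

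**Figure D5:**
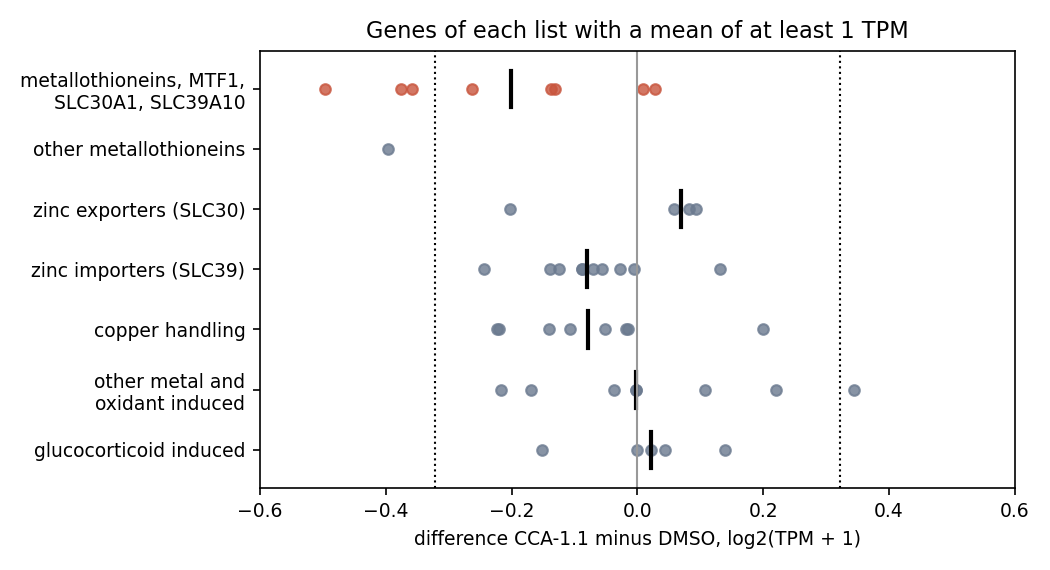
Differences (CCA-1.1 minus DMSO, log2(TPM + 1)) of the genes averaging 1 TPM or more in each list, with 1 point per gene, a bar at the median and dotted lines at 20% lower and 25% higher. MT2A, MT1X, MT1M and MT1L lie left of the lower dotted line, and SLC7A11 is the only point right of the upper line.

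Values that could move with short transcripts or with base composition were set beside the metallothioneins. Grouped by the longest transcript of a gene, 66 protein-coding genes averaging 1 TPM or more were under 600 bases, with a median difference of -0.02. Of these 66 genes, 19.7% were lower by more than 20%, against 3.85% of 9823 genes of 2000 bases or longer, so short genes spread more widely. At a minimum of 10 TPM the share among short genes was 3.85% of 26, with a median of -0.02. By longest transcript, however, MT1M alone of the members is under 600 bases. Members that reach the minimum mean are counted in their own length groups. MT1X (1727 bases), MT1F (1573 bases) and MT2A (903 bases) fall in longer groups. At a minimum of 10 TPM, 8.77% of 228 genes from 600 to below 1000 bases were lower by more than 20%. MT2A and MT1E fall in this group. The share was 4.79% of 1168 genes from 1000 to below 2000 bases, where MT1X and MT1F fall. For 6404 genes of 2000 bases or longer it was 3.22%.

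The canonical transcripts of the 6 metallothionein members are 398 to 746 bases long, and 49.3% to 55.6% of their bases are G or C. Groups by canonical transcript and by G and C were added after the data had been seen. Under 600 bases of canonical transcript, 12.5% of 200 genes were lower by more than 20% at a minimum of 1 TPM, 6.72% of 134 at 10 TPM, and 3.23% of 93 at 100 TPM, with medians of 0.05, 0.04 and 0.04. MT2A and MT1X are themselves among the genes counted as lower in each of these groups. They weigh most at 100 TPM, where the group is smallest, so that share is not a background independent of them. Among 2405 genes averaging 10 TPM or more with 50% to 60% G or C, the median was -0.03 and 4.49% were lower by more than 20%. At 100 TPM or more, the level of MT2A, this group held 542 genes, with a median of -0.05 and 5.17% lower. MT1X, at 49.3%, falls in the group from 40% to 50%. At 100 TPM or more, that group held 543 genes, with a median of -0.0017 and 3.31% lower. By canonical transcript, the wider spread of genes under 600 bases was thus seen at low levels, where MT1M lies. It was smaller at the levels of MT2A and MT1X. The part of transcript length in the metallothionein values was not tested.

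The labelled cell type was checked against a list of markers. The mesenchymal markers FN1, VIM, CAV1 and CD44 were all abundant, at 607 TPM or more with DMSO. CD44, at 607 TPM with DMSO and 473 TPM with CCA-1.1, was lower by more than 20%, as MT2A was, with a difference of -0.36. The difference was -0.31 for FN1, -0.05 for VIM and 0.05 for CAV1. The part of this in the metallothionein values was not tested. The 4 glial markers summed to 7.92 TPM with DMSO and 9.05 TPM with CCA-1.1, most of it OLIG2 at 5.64 TPM and 7.03 TPM. The astrocyte marker GFAP was below 1 TPM in both libraries and S100B was listed at 0, so these cells held little or none of the markers that define astrocytes. The neuronal markers summed to 49.2 TPM and 45.6 TPM, nearly all of it SYP, and the hepatocyte markers to 0 and 0.16 TPM. The leukocyte markers summed to 0.09 TPM and 0.07 TPM, the epithelial markers to 0.34 TPM and 0.22 TPM, and the endothelial markers to 3.81 TPM and 3.04 TPM.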

How the data were processed

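RNA from 1 DMSO treated and 1 CCA-1.1 treated U87 culture was enriched for mRNA and sequenced on an Illumina instrument. Per the methods and the submitters' processing notes, the authors assessed read quality (FastQC 0.11.9, MultiQC 1.1) and estimated transcript abundance by pseudo-alignment in Kallisto, with GRCh38.p14 as reference. The deposited values are TPM per transcript and library, with column sums of 999999 and 1000000. Depth cannot be recovered from TPM, so no intervals were computed and no count test was run. Transcripts were matched to RefSeq symbols with versions ignored (169966 of 177816) and summed per gene.

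The members and gene lists were chosen with earlier results of these data known. Named were all members, list genes averaging 1 TPM or more that were lower by more than 20% or higher by more than 25%, and the highest gene of each list. The 2-fold criterion follows the study, whose p-value criterion needs counts. Coding sequences and 31-base stretches came from the principal GENCODE transcripts, taken by name, and replaced a planned comparison of proteins, which was not run. Alternatives were other pseudocounts, minimum means, median-ratio scaling, curated transcripts and versioned identifiers. A further mesenchymal marker is not reported here. The calculation was tested on simulated data with planted changes larger than the 2-fold criterion, in genes averaging 10 TPM or more. That test does not cover the smaller step, genes at lower levels or replicate error. Python 3.11.15, numpy 2.4.6, pandas 2.3.3 and matplotlib 3.10.9 were used.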

Additional observations from a re-analysis of the deposited data

How the results depend on the processing

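Of 116 values recomputed under alternatives, 112 moved by no more than 0.1 on the log2 scale, or, for counts, by no more than 1.5 times, and 2 medians near 0 changed sign. The median of the other metal and oxidant induced genes, -0.0024, was 0.0052 with curated transcripts only, and that of short genes, -0.02, was 0.05 by canonical transcript. The 4 values that moved further belong to the members near 0 TPM. The difference of MT1M was -0.68 with a pseudocount of 0.1 TPM and -0.74 with 0.01 TPM. That of MT1G was 1.81 and 4.70 under the same pseudocounts, which follows from its value of 0 in the DMSO library. The summed metallothionein difference was -0.37 without MT1L, an alternative added after the data were seen, as were the 100 TPM minimum for the background, the canonical transcripts and the grouping by G and C. Grouping by the length of the transcript with the highest TPM was not run, since lengths of the deposited transcripts were not used here. No paired analysis was possible because each treatment has 1 library, and for the same reason no library could be left out. Without read counts, values near 0 have no error. Many of the alternatives could hardly move the values. The metallothionein members have only curated entries, the scaling factor was 1.006, and a pseudocount matters little at high TPM. None of the alternatives addresses replicate error, depth or the division of reads among metallothioneins.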
